A study of Rattus norvegicus with 16 samples.

Results

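The testis was compared with 5 other tissues of the adult male rat through its microRNAs (miRNAs), using the 2 testis libraries of a set of 12 small RNA libraries, within a series of 16. One animal of each of 2 inbred strains gave all 6 tissues, that is testis, brain, liver, spleen, heart and kidney. The strains were BN-Lx, a brown Norway rat that carries the polydactyly-luxate syndrome, and SHR, the spontaneously hypertensive rat. None of the animals was described as treated, so that a group differed from the others by tissue and, within a tissue, by strain. The strains served as the replicates of a tissue, with n = 2 in each, and 4 further liver libraries from other rats of both strains did not enter the comparison. Whole organs were used, and each testis library was thus made from germ cells, Sertoli cells, Leydig cells, peritubular smooth muscle cells, vessels and blood together. In such material more cells of a type and more RNA per cell cannot be told apart.

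miRNAs are cut from hairpin precursors in consecutive steps by Drosha and Dicer, and 1 of the hairpin's arms is usually kept in an Argonaute protein, where bases 2 to 8, the seed, select the mRNAs that are repressed. The arms are named 5p and 3p after the side of the hairpin from which they come. In the testis, mir-34b, mir-34c and the mir-449 hairpins are known from germ cells in and after meiosis, the mir-463 cluster is a fast-evolving group of X-linked hairpins known mostly from the testis, and mir-202 is known from the gonads of vertebrates.

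The mature sequences around which the comparison turned are given 5′ to 3′ from RefSeq (assembly GRCr8), with the seed in capitals. The first set shows the mir-34 and mir-449 family, in which 5 arms had the seed GGCAGUG and the 3p arms of mir-34b and mir-34c shared another one.
mir-34b-3p: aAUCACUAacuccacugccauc
mir-34c-3p: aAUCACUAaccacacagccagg
mir-34c-5p: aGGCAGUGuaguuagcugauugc
mir-34b-5p: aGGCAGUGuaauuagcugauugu
mir-34a-5p: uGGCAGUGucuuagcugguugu
mir-449a-5p: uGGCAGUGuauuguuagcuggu

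The next set holds the most abundant arms of the mir-463 cluster, of which no pair shared a seed.
mir-742-3p: gAAAGCCAccauguuggguaaa
mir-743a-3p: gAAAGACGccaaacuggguaga
mir-743b-3p: gAAAGACAccauacugaauaga
mir-878-3p: gCAUGACAccauacuggguaga
mir-463-5p: uACCUAAUuuguuguccauca
mir-741-3p: aAAGAUGCcacgcuauguagau
mir-883-3p: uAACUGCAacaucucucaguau
mir-3580-3p: uGACUAGGguaguaugaguaga
mir-871-3p: uGACUGGCaccauacuggauaa

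The last set holds the remaining hairpins that were high in testis and the arms that were low there.
mir-202-5p: uUCCUAUGcauauacuucu
mir-202-3p: aGAGGUAUagcgcaugggaaa
mir-547-5p: uCACUUCAggauguaccaccca
mir-547-3p: aUUGGUACuucuuuaagugaga
mir-201-5p: cACUCAGUaaggcauuguuc
mir-24-3p: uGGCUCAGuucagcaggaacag
mir-139-5p: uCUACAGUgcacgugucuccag
Of 55 arms looked up, 50 had a sequence in the RefSeq table, and mir-126-3p, mir-191-5p, mir-201-3p, mir-881-5p and mir-99a-5p are named only.

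The testis libraries were the shallowest of the set, with 26880 (BN-Lx) and 29131 (SHR) reads on miRNA hairpins against 403453 to 1064894 in the other 10. Levels are given as rpm, reads scaled to 1e+06 hairpin reads of the library. A single read was worth 37.2 and 34.3 rpm in the testis libraries, so that a count of 0 allowed a level of up to 112 and 102.98 rpm, whereas the lowest such limit elsewhere was 2.82 rpm. Per the study's methods the testis libraries were also amplified with more PCR cycles than most others, and the effects of amplification and of tissue on the reads cannot be told apart. Intervals cover counting error only, as reads copied by PCR are not independent molecules. Despite the low depth, 325 and 343 arms were detected in testis, and after thinning of all libraries to 1 depth the testis libraries held 324 and 330 arms against 229 to 362.5 (median 258.75) in the other tissues, where both brain libraries lay above them. The 3 most abundant arms took 24.8% and 21.0% of the testis reads, within the range of 17.5% to 49.0% elsewhere. The mean read length of 21.9 and 21.7 bases was also within the range of the other libraries (21.7 to 22.1).

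As to the identity of the tissue, its markers mir-34b, mir-34c and mir-463 were all read in both testis libraries, at levels above those of all other libraries for their leading arms. Across 259 arms with a mean level of at least 100 rpm, the rank correlation between the strains was 0.938 in testis. Testis against kidney gave 0.438 to 0.580, against spleen 0.483 to 0.517, against heart 0.461 to 0.478, against liver 0.445 to 0.476, and against brain 0.231 to 0.289. These are descriptions across arms that share libraries, and brain, which like testis held many arms, was the tissue with the least similar order.

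A small number of hairpins filled the leading ranks of the testis. Germ-line is used from here on as a label for the 4 lists named below. The cells of the testis that held these miRNAs were not measured. mir-145-5p was the most abundant arm, with 136086 rpm in BN-Lx and 126017 rpm in SHR. It is a smooth muscle miRNA, and heart held more of it in both strains (185628 and 171422 rpm). mir-103-3p, mir-29a-3p, mir-125a-5p, mir-99a-5p, mir-191-5p and, from the germ-line hairpins, mir-34b-3p, mir-202-5p and mir-742-3p completed the 10 arms with the highest mean, with mir-103-3p counted at both of its hairpins. These germ-line arms had at most 179 rpm outside the testis, and the other arms were abundant in at least 1 of the other tissues. Together, the 4 germ-line lists (mir-34 and mir-449 family, mir-463 cluster, mir-547 group and mir-202) made up 18.1% (95% exact binomial interval 17.7 to 18.6) of the reads in BN-Lx testis and 25.5% (25.02 to 26.03) in SHR testis. In the other 10 libraries the same lists made up 0.0626% (BN-Lx liver) to 0.819% (SHR brain).

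Of 458 arms tested, 24 (5.24%) were higher in testis than in each of the 5 other tissues and 4 (0.873%) were lower, together 28 (6.11%), at an adjusted p of 0.05 in edgeR's quasi-likelihood test with strain as a block. All 24 belonged to the 4 germ-line lists: 14 of 16 tested arms of the mir-463 cluster, 4 of 5 of the mir-547 group, 2 of 2 of mir-202 and 4 of 8 of the mir-34 and mir-449 family. These lists were chosen with earlier results of these data known, so that the membership is no independent support. Of the 24 arms, 23 had 0 reads in at least 1 other library. Arms with few reads elsewhere passed the filter on low counts only through testis, so that their share called was partly set by that filter. The log2 difference from the nearest tissue, which was kidney for 17 of the 24, ran from 2.90 to 10.62, while the median of the testis-minus-others difference over all 458 arms was 0.33. In the lower of the testis libraries each of the 24 was at least 13.4 times as high as in the highest other library. The number called depended on single libraries, as it was 11 without BN-Lx spleen, 13 without SHR spleen, 15 without BN-Lx testis and 14 without SHR testis. It also moved with the scaling of the libraries. The TMM factors put the testis levels 1.04 lower on the log2 scale, relative to the other tissues, than scaling to total reads did, the RLE factors 0.66 and the outlier-corrected mean (ocm, the mean over arms without the 3 with most reads) 0.06. The split of higher to lower calls was 24 to 4 with TMM, 26 to 3 with RLE factors, and 27 to 0 with total reads and with the ocm. Under each of these the 24 arms were called higher again.

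**Figure D1:**
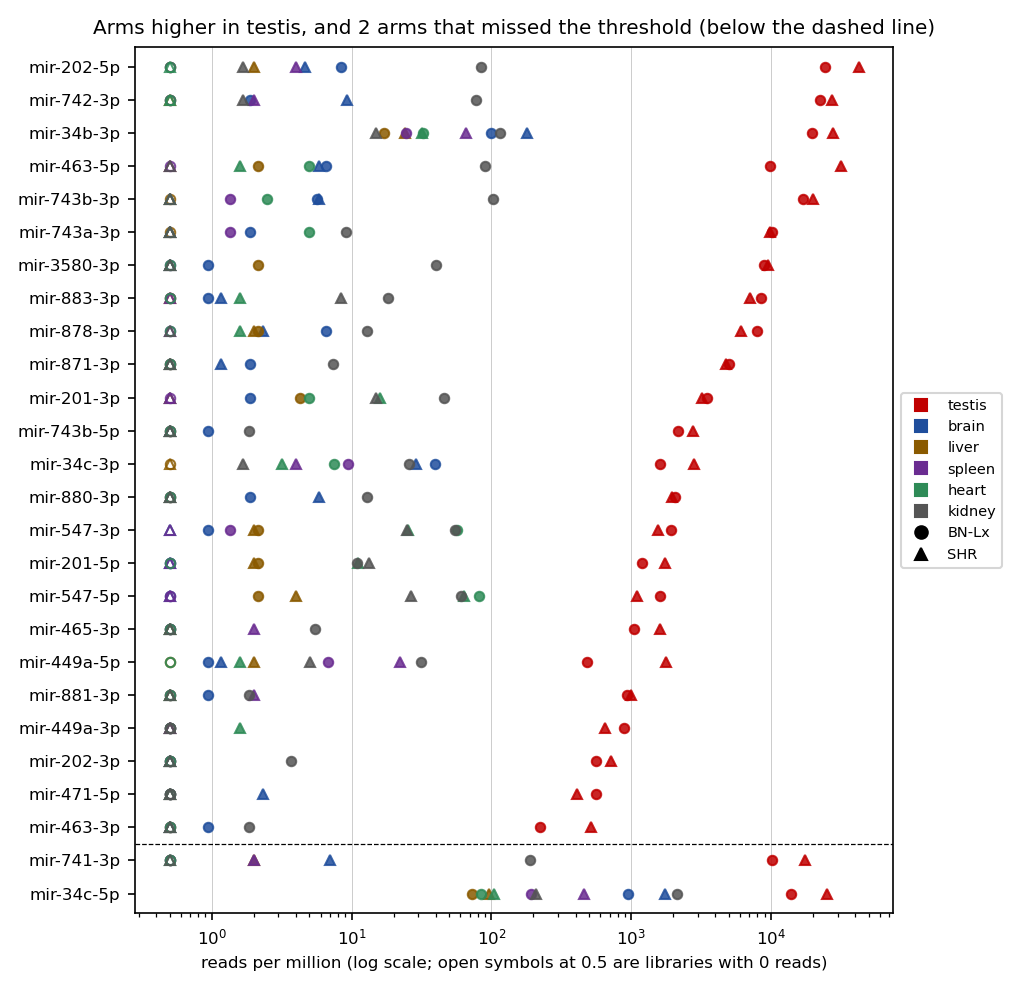
Levels of the 24 arms called higher in testis and of mir-741-3p and mir-34c-5p, which missed the threshold, in rpm on a log axis, with 1 symbol per library (colour for tissue, circle for BN-Lx, triangle for SHR). Both testis libraries lie to the right of all other libraries in each row, and the BN-Lx kidney library is the nearest one for many arms of the mir-463 cluster.

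By a rule without a test, namely a level in testis at least 5 times that in every other tissue in each strain, on the scale of the ocm and with at least 10 reads in each testis library, 25 of 696 arms (3.59%) were specific to testis. This set included 23 of the 24 arms above. It added mir-34c-5p and mir-741-3p and left out mir-463-3p, which was read 6 times in BN-Lx. With total reads the number was 25, with TMM 24, at a fold of 3 it was 27 and at a fold of 10 it was 24.

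Within the mir-34 and mir-449 family, which comprises suppressors of cell cycle genes, the arms differed widely. mir-34b-3p had 19754 and 27565 rpm (531 and 803 reads) in BN-Lx and SHR testis, against 15.1 to 179 rpm (median 32.0) in the other 10 libraries, the highest being SHR brain. The testis mean of 23660 ± 5523 rpm (SD, n = 2) was 170 times that of brain. For reads pooled over the strains, the counting interval of this ratio was 155 to 203. The arm was called higher in the main edgeR fit (log2 difference from brain 7.09 ± 0.95 SE, adjusted p = 0.000683) and in all 23 alternatives. The groups were far apart and did not overlap. mir-34c-3p followed with 1600 and 2815 rpm in testis against at most 39.4 rpm elsewhere (log2 5.86 ± 0.96, adjusted p = 0.00267 in edgeR).

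mir-34c-5p, the main arm of its hairpin, had 13914 and 25231 rpm in testis. The other libraries held 72.6 to 2115 rpm (median 199.9), with the highest values in BN-Lx kidney (2115 rpm), SHR brain (1748 rpm) and BN-Lx brain (948 rpm). Testis was thus above all of them, but edgeR's adjusted p was 0.0838 with a log2 difference from kidney of 3.05 ± 0.92. In SHR kidney mir-34c-5p had 207 rpm. The arm was called in edgeR with total reads (adjusted p = 0.0270), RLE factors (0.0321), the ocm (0.0251) and after thinning (median 0.000516). DESeq2 called it as well (adjusted p = 0.00330). It was also called once both kidney libraries were left out (2.33e-05 in edgeR), an alternative chosen after these values were seen.

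mir-449a, the homologue on chromosome 2, was less abundant. Its 5p arm had 484 and 1785 rpm (13 and 52 reads) in testis and at most 31.2 rpm in BN-Lx kidney, and its 3p arm 893 and 652 rpm against a single read in SHR heart. Both were called (edgeR, adjusted p = 0.0183 and 0.00561). mir-449c was near the limit of detection, with 1 and 2 reads of its 3p arm in testis and none of its 5p arm.

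mir-34a went a different way. Its 5p arm, known from the p53 response, had 2679 and 721 rpm in testis, below brain (6499 and 5968 rpm) and within the range of 433 to 6499 rpm of the other tissues, and was not called in either direction (edgeR adjusted p = 1). Its 3p arm, with 558 and 412 rpm (15 and 12 reads), lay above all others (at most 178 rpm in BN-Lx brain) but was not called either (adjusted p = 0.735 in edgeR). Summed over the 5 arms with the seed GGCAGUG, testis held 1.75% and 2.81% of its reads, against 0.0585% to 0.780% elsewhere. The arms with the seed AUCACUA made up 2.14% and 3.04% of testis reads and at most 0.0208% elsewhere, so that in testis the seed of the 3p arms was the more frequent one in both strains, and in all 10 other libraries the seed GGCAGUG was.

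The arms of mir-34b were unevenly used in testis. The 5p arm took 2.21% (exact 95% interval 1.15 to 3.83) of the hairpin's testis reads in BN-Lx and 1.35% (0.68 to 2.41) in SHR. In brain the 5p share was 58.7% and 31.9%, in spleen 62.5% and 38.9% and in BN-Lx kidney 44.2%, with intervals that did not overlap those of testis. The same held for both livers (4 of 12 and 4 of 16 reads on the 5p arm) and SHR heart (25.9%). SHR kidney, with 2 of 11 reads (18.2%, interval 2.28 to 51.8), and BN-Lx heart, with 0 of 13 (interval 0 to 24.7), overlapped both testis libraries. For mir-34c the 5p arm was the major one in every library, with 89.7% and 90.0% in testis and 91.9% to 100% elsewhere.

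**Figure D2:**
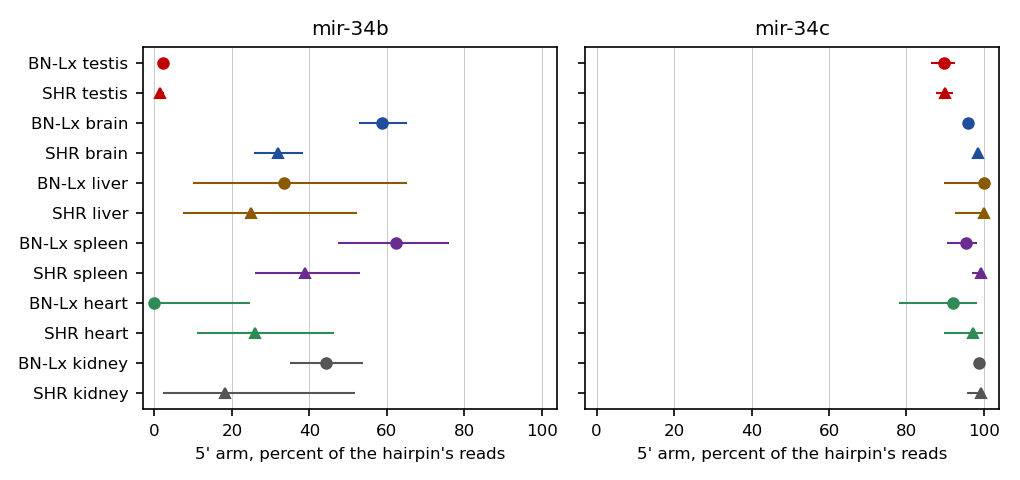
Share of the reads of mir-34b and mir-34c that came from the 5p arm, in percent, for each of the 12 libraries, with exact 95% binomial intervals as bars (colour for tissue, circle for BN-Lx, triangle for SHR). For mir-34b both testis libraries lie at 2.21% and 1.35%, and the wide bars in liver, heart and SHR kidney reflect few reads.

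Of 96 hairpins with at least 20 reads in both testis libraries and in at least 1 other library, 1 led with another arm in testis than in all others, namely mir-547. Its 5p arm made up 45.3% and 41.6% of the hairpin's reads in testis against 51.6% to 71.4% in heart and kidney, but the testis intervals (35.02 to 55.8 and 30.4 to 53.4) included an even division between the arms. For 22 arms of the germ-line lists the most frequent read began at the same base of the hairpin in both testis libraries, and in all 39 cases in which another library had enough reads it began at that base too. mir-202-5p was read as a product of 19 bases, as listed in RefSeq.

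The mir-463 cluster was the most abundant germ-line group, with 10.7% of the reads in BN-Lx and 14.4% in SHR (mean 12.6 ± 2.62%, SD, n = 2). The other 10 libraries held 0.000271% (BN-Lx spleen, 2 reads) to 0.0588% (BN-Lx kidney, 320 reads). Its 14 hairpins lie on the minus strand of chromosome X within 47.2 kb (RGSC3.4 chrX:152821786-152868967), and all were read in testis. A pair of further X-linked hairpins with calls, mir-201 and mir-547, lie in a second group with mir-3585 (chrX:154164067-154169531).

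Within the cluster the hairpins differed in level by orders of magnitude. mir-742-3p had 22507 and 27462 rpm (605 and 800 reads) in testis, with 0 reads in 5 of the other libraries and at most 77.2 rpm, in BN-Lx kidney (edgeR log2 8.55 ± 1.45, adjusted p = 0.00420). mir-743b-3p had 16964 and 19979 rpm against at most 102.9 rpm, and mir-463-5p 9821 and 31444 rpm against at most 90.1 rpm, both maxima again in BN-Lx kidney. mir-743a-3p, with 10193 and 9852 rpm, had at most 9.19 rpm elsewhere (5 reads) and showed the highest log2 difference from the nearest tissue, 10.62 ± 1.21 (edgeR adjusted p = 0.000431).

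mir-3580-3p, mir-883-3p, mir-878-3p and mir-871-3p followed, with testis means of 9181 ± 463, 7741 ± 995, 6999 ± 1256 and 4861 ± 175 rpm (SD, n = 2) and at most 40.4 rpm elsewhere. All 4 were called, and mir-878-3p, mir-883-3p and mir-743a-3p were called in all 23 alternatives. The less abundant mir-880-3p, mir-465-3p, mir-881-3p, mir-471-5p, mir-743b-5p and mir-463-3p, with 412 to 2781 rpm for all of them but mir-463-3p (223 and 515 rpm), were called as well. Their other-tissue values were 0 to 7 reads per library.

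The cluster's uncalled arms were mir-741-3p and mir-742-5p. mir-741-3p was abundant, with 10082 and 17404 rpm (271 and 507 reads) in testis, and it had 189 rpm in BN-Lx kidney and 0 reads in SHR kidney. Its edgeR log2 difference from kidney was 6.26 ± 1.77 with an adjusted p of 0.0673, and 4.16e-08 without both kidney libraries. With all libraries it was called in edgeR under RLE factors (adjusted p = 0.0458), total reads (0.0476) and the ocm (0.0408). It was also called after thinning (median adjusted p = 1.69e-06 in edgeR), but not by DESeq2. mir-742-5p had 1 and 12 reads in testis. A further 10 arms of the cluster, among them mir-3551-3p with 4 and 8 reads and mir-883-5p with 5 and 6, did not pass the filter on low counts.

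**Figure D3:**
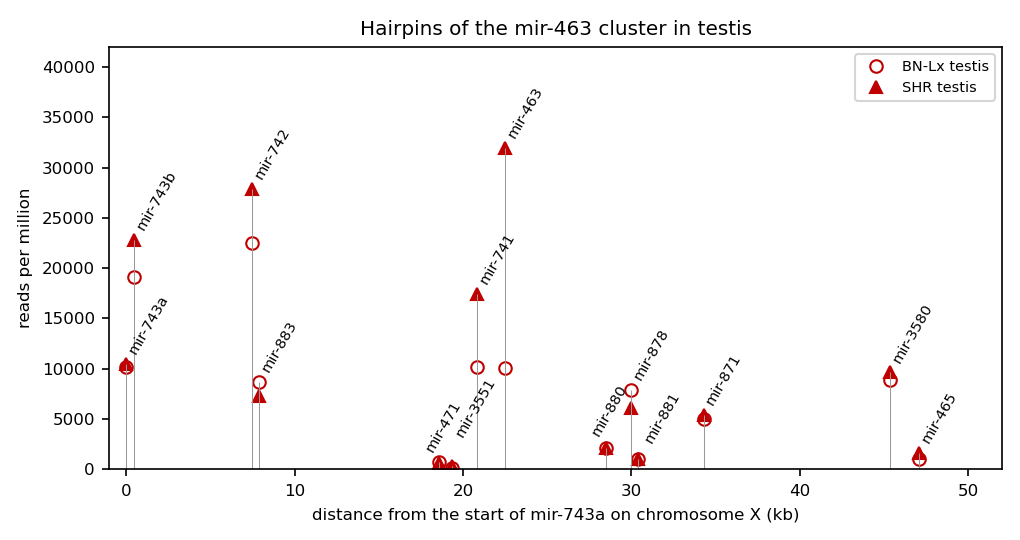
Level in testis of the 14 hairpins of the mir-463 cluster, in rpm on the vertical axis, against the distance from the start of mir-743a in kb (open circles BN-Lx, filled triangles SHR). mir-3551 is lowest in both libraries (149 and 309), and the highest are mir-742 in BN-Lx (22545) and mir-463 in SHR (31959).

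The sequences of the cluster's 3p arms were related in part. Over 66 pairs of the 12 arms with 22 bases, the median number of equal bases at equal positions was 7, with a range of 1 to 18, beside a median of 6 for 66 pairs of arms outside the cluster. mir-743a-3p, mir-743b-3p and mir-878-3p shared 18 of 22 bases in each pair, and mir-742-3p shared 16 with each of the 3. The seeds of mir-743a-3p and mir-743b-3p had 6 of 7 bases in common, and reads were counted for them only on a perfect match. The only seed that occurred more than once in the cluster, AUUCAGA, belonged to mir-743a-5p and mir-871-5p, which were absent from BN-Lx testis and had 19 and 18 reads in SHR testis.

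mir-202-5p had the highest mean among the arms of the germ-line lists, 33448 ± 12895 rpm (SD, n = 2), with 24330 rpm (654 reads) in BN-Lx and 42566 rpm (1240 reads) in SHR, while BN-Lx liver, BN-Lx spleen and both heart libraries had 0 reads and the highest other library, BN-Lx kidney, had 84.5 rpm (46 reads). It was called in all alternatives (edgeR log2 difference from kidney 9.01 ± 1.43, adjusted p = 0.00232). Of the 3p arm, 15 and 21 reads were found in the testes and 2 in kidney of BN-Lx (edgeR adjusted p = 0.0122). Its seed GAGGUAU shared 6 of 7 bases with that of let-7f. The hairpin lies on chromosome 1 (RGSC3.4 chr1:199758111-199758226, minus strand) and was recognised by its homologue in mouse or human.

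mir-547 and mir-201 were less exclusive to testis. mir-547-5p had 1600 and 1098 rpm in testis, 81.8 and 63.4 rpm in heart and 60.6 and 26.8 rpm in kidney, and at most 3.99 rpm in brain, liver and spleen. The log2 difference from heart of 2.90 ± 0.66 was the lowest among the arms called (edgeR adjusted p = 0.0236). mir-201-3p had 3497 and 3192 rpm in testis and 45.9 and 15.1 rpm in kidney (edgeR log2 6.01 ± 0.91, adjusted p = 0.00232). mir-3585-5p, with 9 and 4 testis reads against 5 and 19 from kidney, was not called (adjusted p = 0.318 in edgeR). Heart and kidney libraries of both strains thus held reads of the group, at 58 to 99 reads per library, and brain, liver and spleen libraries at most 5.

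Of 72 arms tested that lie on the X chromosome, 18 were called higher in testis and none lower, all 18 from the 2 X-linked groups. Over all 458 arms 24 (5.24%) were called higher and 4 (0.873%) lower. With so few lower calls over all arms, their absence among 72 says little about the X chromosome. Of the 51 X-linked arms outside these groups none was called, and 6 of the 24 arms called higher lie on other chromosomes. The testis is also the tissue of piRNAs, small RNAs of the germ line that are longer than miRNAs, for which the study deposited 365 clusters. None of 332 hairpins with a position overlapped one of them. The study removed reads on miRNAs before it built the clusters, so that this absence was largely set by that filter.

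The BN-Lx kidney library held 320 reads (588 rpm) of the mir-463 cluster, 48 reads of mir-202 and 1151 reads of mir-34c-5p, while the SHR kidney library held 6, 1 and 124. BN-Lx kidney was the highest non-testis library for 16 of the 24 arms called higher. Within the cluster, mir-741-3p formed 32.2% of its reads against 9.39% and 12.05% in testis, and mir-743a-3p 1.56% against 9.49% and 6.82%. Other arms were nearer to their testis shares, with mir-743b-3p at 17.5% against 15.8% and 13.8%, mir-463-5p at 15.3% against 9.15% and 21.8%, and mir-3580-3p at 6.88% against 8.25% and 6.58%. Without both kidney libraries 28 arms were called higher, including all 24, and 6 lower. The part of this library in the results was tested only by leaving it out.

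A further 18 lists of hairpins covered dividing, muscular, vascular and blood cells, markers of the other organs and some miRNA families. As all 24 arms called higher (5.24% of 458) were in the germ-line lists, none of the arms in these 18 lists was, which is no separate result. The mir-17-92 and mir-106b-25 clusters, which are known from proliferating cells, took 4.01% and 3.94% of testis reads, beside 3.29% and 4.14% in spleen and at most 1.52% in the other tissues. mir-17-1-5p of this list had 10807 and 10779 rpm in testis against at most 8778 rpm in SHR spleen, without a call (edgeR adjusted p = 1). The mir-290 cluster, known from embryonic stem cells and early germ cells, had a single read in BN-Lx testis and none in the other.

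mir-143 and mir-145, miRNAs of smooth muscle, took 14.1% and 13.0% of testis reads, below heart (19.4% and 18.0%) and above all other tissues (at most 9.46%). Nearly all of this was mir-145-5p, as mir-143-3p had 5357 and 3982 rpm. mir-199a and mir-214 of mesenchymal cells took 0.792% and 0.614%, above brain and liver and below the other 3 tissues. The epithelial mir-200 family had 5 and 10 reads (0.0186% and 0.0343%), between heart (0.00768% and 0.00857%) and kidney (0.743% and 3.22%). The mir-183 cluster had 2 and 1 (0.00744% and 0.00343%), also between heart (0.00273% and 0.00254%) and kidney (0.0965% and 0.171%). These few testis reads gave wide intervals. Blood cell miRNAs took 1.78% and 1.77%. This was far below spleen (27.6% and 24.7%), below heart (4.83% and 3.48%) and liver (2.15% and 2.29%), and above brain (0.989% and 1.23%) and kidney (1.23% and 0.777%). In testis mir-223-3p of myeloid cells had 6659 and 7003 rpm and mir-451-5p of red cells 2418 and 2437 rpm.

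**Figure D4:**
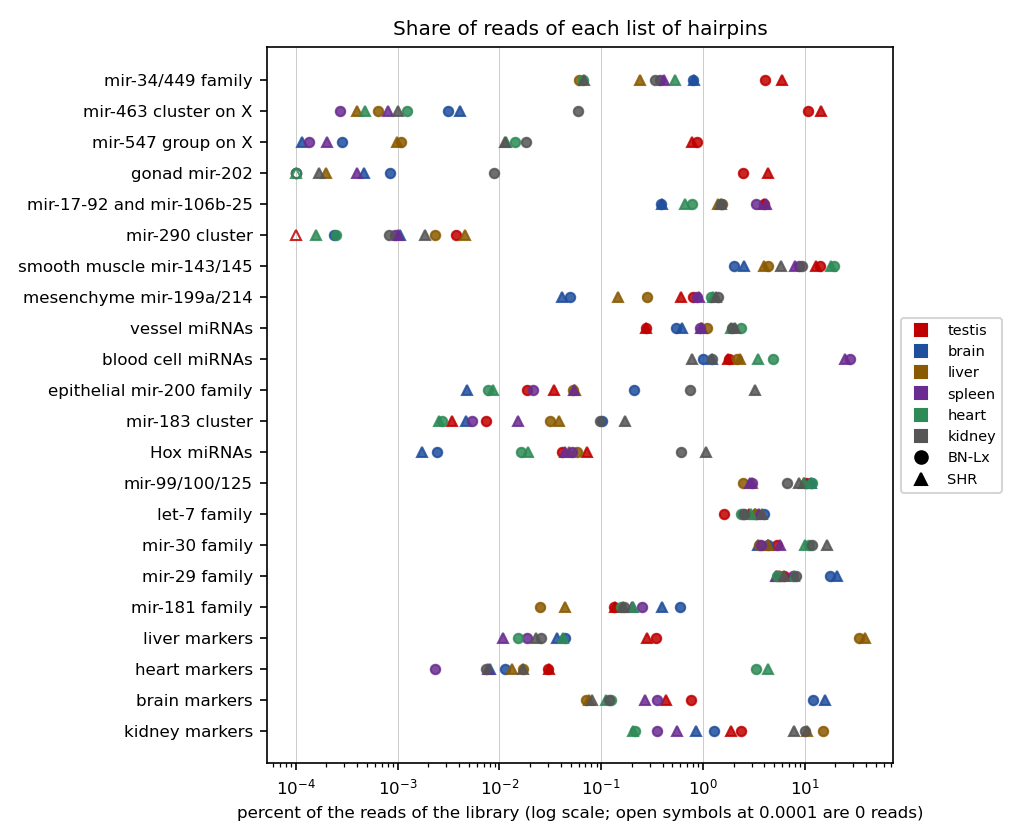
Share of the reads of each library that came from each of the 22 lists of hairpins, in percent on a log axis (colour for tissue, circle for BN-Lx, triangle for SHR). The testis libraries lie apart from all others on the high side for the 4 germ-line lists at the top and on the low side for the vessel miRNAs.

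Markers of the other organs were low in testis but not absent. mir-122, of hepatocytes, made up 0.342% and 0.281% of the reads (92 and 82 reads), against 34.4% and 39.0% in liver and at most 0.044% in the other non-liver libraries. Its arms were in another proportion than in liver, with 63 and 61 reads of mir-122-3p beside 29 and 21 of mir-122-5p, whereas in liver mir-122-5p had 124614 and 161586 reads and mir-122-3p 36497 and 33796. Brain markers made up 0.759% and 0.436% of testis reads, above all non-brain libraries (at most 0.349%). Heart markers made up 8 and 9 reads. The part of RNA from other organs in the testis levels was not tested.

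The kidney list held an arm that was higher in testis than in kidney. mir-204-5p had 17597 and 15104 rpm in testis, 737 and 1104 rpm in kidney and 10375 and 7053 rpm in brain, the next tissue. The testis values lay above all others, but the difference from brain did not pass the test (log2 0.59 ± 0.39, edgeR adjusted p = 1). mir-192-5p, the main arm of the list, had 5878 and 3673 rpm in testis against 97225 and 71122 rpm in kidney.

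In all, both testis libraries lay above each of the 10 others for 43 of the 458 arms (9.39%), of which 27 were in the germ-line lists and 16 were not. The latter, chosen after their values were seen, were mir-100-5p, mir-135b-5p, mir-151-5p, mir-17-1-5p, mir-18a-5p, mir-204-5p, mir-296-5p, mir-362-3p, the 3p arms of mir-466b-1 and mir-466b-2, mir-494-3p, both arms of mir-542 and of mir-872, and mir-99b-5p. Among them mir-296-5p had 1525 and 4737 rpm in testis (41 and 138 reads) against at most 705 rpm in BN-Lx brain. None of the 16 was called in the main fit.

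Few arms were low in testis. mir-126-3p, a miRNA of endothelial cells, had 1414 and 2025 rpm (38 and 59 reads) in testis. The other libraries held 3405 to 20600 rpm (median 8857), with brain lowest and heart and kidney highest, so that the groups did not overlap (edgeR log2 difference from brain −1.45 ± 0.36, adjusted p = 0.0271). It kept the call in 12 of 23 alternatives, with RLE factors and DESeq2 among them. mir-126-5p of the same hairpin, with 446 rpm in both testis libraries, was just below the lowest other value of 463 rpm in BN-Lx brain and was not called (edgeR adjusted p = 1). The vessel list of mir-126, mir-221 and mir-222 together took 0.275% and 0.278% of testis reads against 0.544% to 2.34% elsewhere.

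mir-139-5p had 149 and 206 rpm in testis, from 4 and 6 reads. The nearest other values were 314 and 354 rpm in spleen, and brain had 2968 and 5564 rpm (edgeR log2 difference from spleen −2.05 ± 0.55, adjusted p = 0.0489). The call was kept in 5 of 23 alternatives and lost, among others, with RLE factors, by DESeq2 and after thinning (edgeR and DESeq2 adjusted p from 0.0238 to 1 over the alternatives). mir-24-3p comes from hairpins on chromosomes 17 and 19 that share their reads, which the authors divided between them, so that its calls for mir-24-1-3p and mir-24-2-3p count 1 product. Each had 16778 and 17765 rpm in testis. SHR liver had 14549 rpm, below testis, and the others 20185 to 70395 rpm, so that on this scale the groups overlapped. The call depended on the scaling: it was made with TMM (edgeR log2 difference from brain −1.23 ± 0.25, adjusted p = 0.00780), with RLE factors and by DESeq2, and was lost with total reads, where the difference from the nearest tissue was −0.00, and with the ocm. mir-24-1-3p was called in 17 of 22 alternatives. No arm was called lower with total reads or with the ocm, and none was when BN-Lx testis was left out. Of these 4 arms, 0 were called without SHR testis, where 1 other arm was, and 0 with the other libraries as 1 group.

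**Figure D5:**
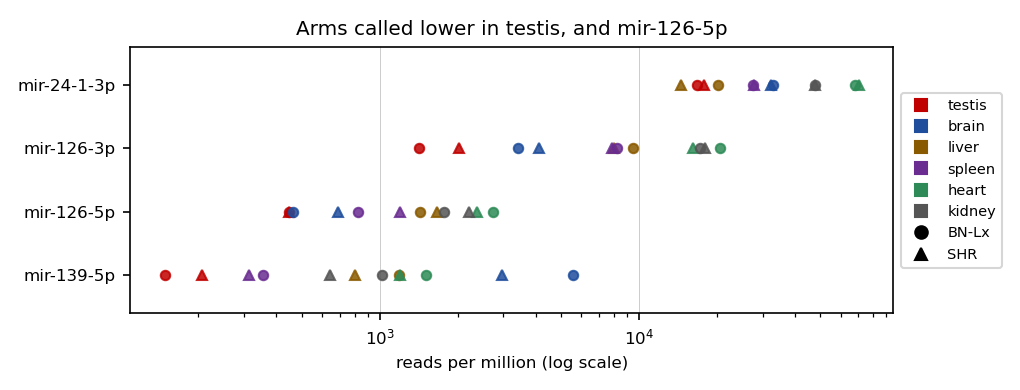
Levels of mir-24-1-3p, mir-126-3p, mir-126-5p and mir-139-5p in rpm on a log axis, with 1 symbol per library (colour for tissue, circle for BN-Lx, triangle for SHR). Testis is lowest for mir-126-3p and mir-139-5p, touches BN-Lx brain for mir-126-5p, and lies above SHR liver for mir-24-1-3p.

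Both testis libraries lay below all 10 others for 6 of the 458 arms (1.31%), namely both arms of mir-126, mir-139-5p, mir-26a-5p, mir-455-3p and mir-674-3p, with testis counts under 3 reads set to 3. mir-26a-5p, chosen after its values were seen, was abundant and close in both testes (8147 and 8170 rpm) and had 10268 rpm in the nearest library, SHR spleen. By the 5-fold rule no arm of 696 was avoided by testis (0.0%). At these depths an arm with fewer than 3 reads in testis could meet that rule only if every other tissue held more than 5 times the limit set by the 3 reads, and an arm absent from testis at a lower level elsewhere was not detectable as such.

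The strains agreed closely in testis for most arms. For 111 arms with at least 50 reads in both testis libraries together, the median absolute log2 difference between SHR and BN-Lx was 0.33, within the 0.24 to 0.40 of the other tissues, and 14 arms differed by more than 1. With 1 library per strain there is no replicate check of such a difference. mir-463-5p was read 264 times in BN-Lx and 916 times in SHR (log2 1.68), while mir-743a-3p of the same cluster differed by −0.05. mir-34a-5p went the other way, with 72 and 21 reads (log2 −1.89), whereas mir-34c-5p of the same family had 374 and 735 (log2 0.86).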

How the data were processed

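Total RNA of whole tissues was extracted with the mirVana kit, and its small RNA fraction was taken by size from a gel. This fraction was made into libraries with the Small RNA Expression Kit of Ambion and sequenced on the SOLiD platform. The deposited files hold estimated counts, made by the authors: reads were mapped with SHRiMP, only perfect matches to hairpins of miRBase or of their own annotation (RGSC3.4) were kept, and a read that matched several hairpins was divided evenly among them, so that paralogs share reads. The totals count hairpin reads only, and other small RNAs of the testis such as piRNAs are outside them. Reads were summed here per hairpin and arm. The files of all 16 libraries held 392 hairpins, some in antisense entries, and 696 arms had at least 1 read in the 12 libraries compared. Of hairpins with a provisional name, 34 were matched to a name by equal reads in the study's annotation, among them mir-3580, mir-465, mir-547, mir-741, mir-3551 and mir-3585, and 60 kept the name in the files.

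Sums were rounded and fitted with edgeR 4.0.16 (R 4.3.3; filterByExpr, TMM, glmQLFit and glmQLFTest) with tissue and strain as terms over the 12 libraries, where all tissues of a strain came from 1 rat and strain was the replicate block. An arm was higher if all 5 contrasts were positive, with the largest of the 5 p-values kept and adjusted by Benjamini-Hochberg over 458 arms, and lower likewise. With strain as a term, p-values measure how the difference between the strains varied from tissue to tissue, with 5 residual degrees of freedom over all tissues. They do not measure the spread between animals of a strain. On simulated counts for 458 arms, 12 of 15 arms changed 16-fold, 0 of 15 changed 4-fold, 5 of 15 lowered to 0.25 and 9 of 15 lowered to 0.0625 were recovered, and 0 of 361 unchanged arms were called. These unchanged arms were set in testis to the mean of the 5 other tissues, inside their range. A call was thus nearly impossible for them, and the 0 does not measure false calls. Depth was 26880 and 29131 reads in testis and 403453 to 1064894 elsewhere.

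Named arms were both arms of the germ-line hairpins, the arms called, the 10 most abundant testis arms, the 2 most abundant arms of each other list, and hairpins with another leading arm. Members, lists and rule were chosen with earlier results of these data known. Alternatives were DESeq2 1.42.0, other scalings and filters, summed paralogs, added livers, thinned reads and left-out libraries. Python 3.11.15 was used for tables.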

Additional observations from a re-analysis of the deposited data

Results flagged for a closer look

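The 4 further liver libraries were in none of the comparisons above. In BN-Lx liver 3 the mir-463 cluster stood out with 497 rpm (580 of 1167607 reads, 20 arms with a read), which was above the livers of the 6-tissue set (6.41 rpm in BN-Lx and 3.99 rpm in SHR) and above the level that a count of 0 would allow in that library (2.57 rpm). The other further livers had 43.8 rpm (BN-Lx), 0.978 and 3.41 rpm (SHR). In the same library mir-463-5p had 152 reads, mir-742-3p 139 and mir-741-3p 70, whereas mir-202-5p had 0, mir-34b-3p 6 and mir-34c-5p 12. Within the cluster mir-463-5p formed 26.2% of the reads, beside 9.15% and 21.8% in testis and 15.3% in BN-Lx kidney.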

How the results depend on the processing

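The number of arms higher in testis was 24 in the main fit and ran from 11 to 27 when each library was left out in turn (11 without BN-Lx spleen, 27 without BN-Lx kidney, 13 without SHR spleen, 15 and 14 without BN-Lx and SHR testis). It was 17 with DESeq2, of which 15 were among the 24, and 26 without the filter on low counts. Thinned to 1 depth, 24 were called, 21 of them the same arms. The number lower, 4 in the main fit, was 0 with total reads, 0 with the ocm, 7 with the 4 further livers, 2 (neither among the 4) with the other libraries as 1 group, and 0 (without BN-Lx testis) to 5 when libraries were left out. The cause of these changes was not tested. No result was reversed. Of 548 alternative values for the 24 arms, 477 kept their call and 71 lost it, and 7 arms kept it in all 23 alternatives (mir-201-3p, mir-202-5p, mir-34b-3p, mir-547-3p, mir-743a-3p, mir-878-3p and mir-883-3p). For the 4 lower arms 51 of 90 kept it.

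Strain, that is the animal, was the replicate block. With no replicate block 25 arms were higher and 5 lower, and all 28 calls were among them, so that the pairing ended none.

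By the 5-fold rule, 32 arms were avoided by testis if counts under 3 were not set to 3, as against 0, and 35 were specific if no minimum of reads was set.

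Some alternatives took arms out of both a list and the total of the library, so that a list could lose its leading arm. Without the arms with most reads, the mir-143 and mir-145 list lost mir-145-5p, and the mir-202 list lost mir-202-5p in SHR only. Without hairpins that have an antisense entry, the liver list lost mir-122, its only hairpin. The shares of testis reads thus moved with the arms counted. Counted outside the 3 arms with most reads, they were 6.46% (mir-34 and mir-449 family), 16.3% (mir-463 cluster), 1.07% (mir-547 group), 1.70% (mir-202), 5.16% (mir-17-92), 0.619% (mir-143 and mir-145), 0.916% (mir-199a and mir-214), 0.359% (vessel), 2.31% (blood), 12.99% (mir-99, mir-100 and mir-125), 6.32% (mir-30), 5.06% (mir-29), 0.176% (mir-181), 0.406% (liver), 0.0393% (heart) and 2.78% (kidney). Without hairpins that have an antisense or unnamed entry they were 0.951% (mir-547 group), 4.58% (mir-17-92), 15.7% (mir-143 and mir-145), 0.0693% (vessel), 1.08% (blood), 0.0122% (mir-200), 9.499% (mir-99, mir-100 and mir-125), 5.604% (mir-30), 0.326% (mir-29), 0.115% (mir-181), 0.0% (liver) and 0.0175% (heart). The main values were 12.6% for the mir-463 cluster, 0.825% for the mir-547 group and 3.41% for mir-202.

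At the depth of testis, arms under 3 reads were not distinguishable from absent ones. In simulation at these depths 0 of 15 arms raised 4-fold were recovered, and 5 of 15 lowered to 0.25.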
